A study of Mus musculus with 6 samples.

Results

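Glycolysis, glycogen and creatine kinase genes were examined in cultured muscle satellite cells (MuSCs), the stem cells of skeletal muscle. The set of 40 genes was listed by symbol and role: glucose transporters, the enzymes of glycolysis, genes of lactate and pyruvate handling, glycogen enzymes and creatine kinases. Of these, 37 had a row among the 20654 genes of the count table, and 28 passed the filter on low counts and could be tested among 8551 genes. The other 9 with a row (*Slc2a3*, *Slc2a4*, *Pfkfb3*, *Aldoc*, *Pdk1*, *Slc16a3*, *Pygb*, *Pygl* and *Ckmt1*) are given by their counts, and the expression of *Fbp2*, *Ckm* and *Ckmt2* was not analysed here.

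RNA-seq was performed on 6 libraries of MuSCs from C57BL/6 background mice, 3 control and 3 labelled *Piezo1* cKO. *Piezo1* encodes a mechanically activated, calcium-permeable ion channel. The study describes the cKO as *Piezo1* flox/flox with *Pax7* CreERT2/+. It names the control of its RNA-seq comparison as *Pax7* CreERT2/+, whereas the labels call the control wild type. Cre is thus driven from the *Pax7* locus, which is active in MuSCs, and is switched on by tamoxifen. Mice for ex vivo studies were injected with tamoxifen, per the study's methods. Cells were sorted as VCAM1+ and Sca1-, CD31- and CD45-, and cultured for 3 d on Matrigel in a growth medium rich in serum and bFGF, with 1 µM 4-OH TMX (the active form of tamoxifen) in the medium of both groups. The age of these mice is not given in the sources used here, and the labels number the libraries without saying which animals they came from, so p-values measure the spread between these libraries. Total counts in control libraries 1 to 3 were 740936, 931168 and 891531, and in *Piezo1* cKO libraries 1 to 3 they were 810096, 726378 and 769295. Values are unique molecular identifier (UMI) counts primed from the poly(A) tail, 1 count for each captured cDNA molecule whatever the transcript length. Levels are therefore given as CPM, the counts of a gene per 1000000 counts, after TMM scaling, which evens out differences in RNA composition between libraries. A gene with 3 counts has a level of 3.35 to 4.31 CPM in these libraries.

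Glycolysis breaks glucose down to pyruvate, yielding ATP without oxygen, and lactate dehydrogenase turns pyruvate into lactate when flux is high, as it is in proliferating cells. Muscle also stores glucose as glycogen, which glycogen phosphorylase releases during contraction, and creatine kinases keep ATP at a steady level through phosphocreatine. Several of these enzymes have a form made in mature muscle and other forms made in most cells, and developing muscle cells move from the general to the muscle form as they differentiate.

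*Piezo1* itself was counted 11, 5 and 6 times in control libraries 1 to 3. In the libraries labelled *Piezo1* cKO it was counted 7, 12 and 9 times. The counts overlapped and were not lower in the cKO libraries (log2 fold change 0.42, SE 0.459, edgeR adjusted p = 0.791, kept for its own test although under the filter). With 1 library left out the estimate ran from 0.14 (without control 2) to 0.93 (without control 1), and it was 0.19 without *Piezo1* cKO 2. Where the counted reads lie relative to the deleted part of the gene was not tested, and the directions given here rest on the labels. The study also measured *Piezo1* mRNA by RT-qPCR in MuSCs of both groups, which is not part of these counts. The labelled cell type was present by its markers, since all 7 MuSC and myoblast markers listed passed the filter, with *Myod1*, the activation factor of MuSCs, at 1087 to 1569 CPM. None of the markers of fibro-adipogenic progenitors, endothelial, immune, pericyte, Schwann or red blood cells passed the filter. Their summed levels were highest for pericyte and smooth muscle markers, at 31.7 CPM in *Piezo1* cKO 2.

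The first question was whether any of the 40 genes differed between the groups. None of those tested passed the threshold: 0 of 28 had an adjusted p under 0.05 in edgeR's quasi-likelihood test, against 0.784% of all genes tested by edgeR. DESeq2 also called 0, but it set an adjusted p for only 18 of the 28 and left 10, *Pgam2*, *Pfkm*, *Pygm* and *Gbe1* among them, without one. At an unadjusted p under 0.05 edgeR had 8 of the 28 (DESeq2 had 5), against 11.9% of all genes tested. Of these 8, *Pgam2* and *Pfkp* had higher estimates in *Piezo1* cKO libraries, and *Slc2a1*, *Gapdh*, *Eno1*, *Ldha*, *Ckb* and *Gbe1* had lower ones. The log2 fold change was above 0 for 13 and below 0 for 15 of the 28, with a median of -0.06 beside 0.0021 over all genes tested. This split depends on the scaling, with 16 above and 12 below 0 both with total counts (median 0.02) and with cyclic loess normalisation, which removes trends with level within a library (median 0.04), and on the libraries, with 9 above and 20 below 0 without control 2. In 3 genes (*Pgam2*, *Pfkp* and *Pdk4*) every cKO library was above every control library, which holds for 8.2% of all genes tested. In 4 genes (*Slc2a1*, *Gapdh*, *Eno1* and *Ldha*) every cKO library was below every control library, which holds for 8.31%. *Gapdh*, *Eno1* and *Ldha* had mean levels above 1000 CPM, where this holds for 36 of 78 genes tested.

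**Figure D1:**
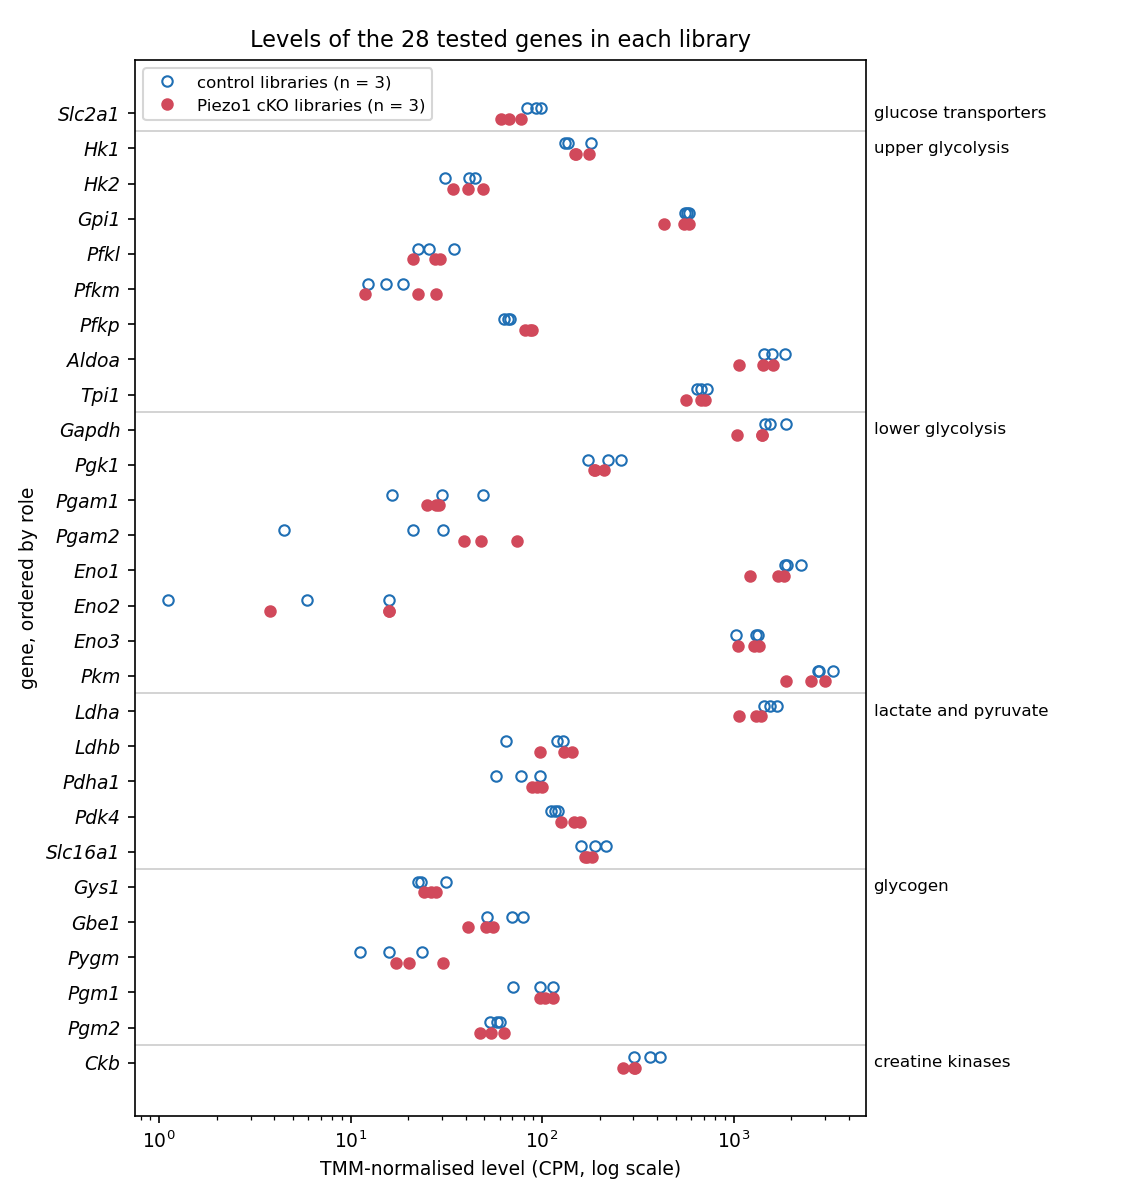
Level of each of the 28 tested genes in every library, as TMM-normalised CPM on a log axis, with genes ordered by role; open circles are the 3 control and filled circles the 3 *Piezo1* cKO libraries. Levels run from 1.12 CPM for *Eno2* in control 2 to 3308 CPM for *Pkm* in control 1, and the groups separate for *Slc2a1*, *Pfkp*, *Gapdh*, *Pgam2*, *Eno1*, *Ldha* and *Pdk4*.

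Glucose enters through transporters of the Slc2a family. *Slc2a1*, the basal glucose transporter GLUT1 (chr4:119108711-119137983, GRCm38), had levels of 99.2, 83.7 and 93.3 CPM in the control libraries and 77.3, 67.4 and 61.0 CPM in the *Piezo1* cKO libraries. All 3 cKO levels lay below all 3 control levels, but the difference did not pass after adjustment (log2 fold change -0.42, SE 0.184, edgeR adjusted p = 0.330). *Slc2a3*, the high-affinity transporter GLUT3, was under the filter with 4 or 5 counts in each control library and 9, 11 and 6 counts in *Piezo1* cKO 1 to 3. The insulin-responsive *Slc2a4* (GLUT4), made by mature muscle and fat, had 2 counts in all 6 libraries together.

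In upper glycolysis, hexokinase (*Hk1*, *Hk2*) phosphorylates glucose and phosphofructokinase (*Pfkl*, *Pfkm*, *Pfkp*) makes the committed step. *Pfkp*, the platelet form of phosphofructokinase (chr13:6579768-6648777), had 67.6, 63.6 and 66.1 CPM in the control libraries and 86.2, 81.9 and 88.8 CPM in the *Piezo1* cKO libraries. Each group was tight and the cKO levels were all higher (log2 fold change 0.38, SE 0.186, edgeR adjusted p = 0.405). *Pfkm*, the muscle form (chr15:98092589-98132451), had 18.7, 12.3 and 15.3 CPM in control and 27.9, 22.5 and 11.9 CPM in cKO libraries. *Piezo1* cKO 3 was the lowest of all 6, so the groups overlapped (log2 fold change 0.45, SE 0.354, edgeR adjusted p = 0.668). *Pfkl*, the liver form, had 34.5, 25.7 and 22.4 CPM in control and 29.2, 27.7 and 21.2 CPM in cKO libraries and showed no separation (-0.06, SE 0.293, edgeR adjusted p = 0.961). *Pfkp* was thus the most abundant of the 3 forms in every library. *Hk1*, *Hk2*, *Gpi1* and *Tpi1* had log2 fold changes between -0.12 and 0.11, with overlapping groups. *Aldoa*, the aldolase of muscle and most other tissues, had 1862, 1442 and 1592 CPM in control and 1601, 1071 and 1428 CPM in cKO libraries. Its groups overlapped (-0.25, SE 0.154, edgeR adjusted p = 0.525). *Pfkfb3*, which makes the activator of phosphofructokinase, and *Aldoc* had at most 6 and 2 counts in a library.

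Lower glycolysis held the most abundant of these transcripts and the largest fold change estimate among the 28 genes tested by edgeR. *Pgam2* encodes the muscle form of phosphoglycerate mutase, which moves the phosphate group of phosphoglycerate ahead of the enolase step (chr11:5801640-5803733). It had 30.2, 4.46 and 21.3 CPM in the control libraries, from 21, 4 and 18 counts, and 39.3, 74.0 and 47.7 CPM in the *Piezo1* cKO libraries, from 31, 56 and 36 counts. Every cKO library was above every control library. Control 2 was far below the other control libraries, and *Piezo1* cKO 2 was the highest. The log2 fold change was 1.58 (SE 0.450), with an edgeR adjusted p of 0.168. The call turned with the libraries used. It passed without control 1 (2.07, edgeR adjusted p = 0.00880), without control 2 (1.08, 0.0304) and without *Piezo1* cKO 1 (1.76, 0.00289), passed with no filter on low counts (1.93e-05), and had its highest adjusted p, 0.495, without *Piezo1* cKO 2. DESeq2 set no adjusted p for it. *Pgam1*, the general form (chr19:41911923-41918660), had 48.9, 30.1 and 16.5 CPM in control and 27.9, 29.1 and 25.2 CPM in cKO libraries. The control levels spread around the cKO levels (log2 fold change -0.18, SE 0.295, edgeR adjusted p = 0.878).

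Enolase makes phosphoenolpyruvate. *Eno3*, its muscle form (chr11:70657202-70662513), was already abundant in the control libraries, at 1310.1, 1024 and 1335 CPM, and had 1284, 1059 and 1362 CPM in the *Piezo1* cKO libraries. The 2 groups covered the same range, and the difference was 0.01 on the log2 scale (SE 0.149, edgeR adjusted p = 0.983). *Eno1*, the general form (chr4:150236721-150248879), had 2249, 1850.4 and 1893 CPM in control and 1830.2, 1220.3 and 1701 CPM in cKO libraries. All cKO levels were below all control levels, *Piezo1* cKO 1 by the narrowest margin (log2 fold change -0.33, SE 0.157, edgeR adjusted p = 0.378). *Eno2*, the neuronal form, had 1 to 12 counts in a library, and its groups overlapped (0.73, SE 0.583, edgeR adjusted p = 0.678).

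The stretches before the start sites of the mutase and enolase genes are shown because the comparison of muscle with general forms turns on these families. The 150 bases upstream of the first start listed by RefSeq (GRCm38.p6) are written 5′ to 3′ on the gene's strand, with matches to CANNTG (the E-box bound by myogenic factors such as MyoD and myogenin) and to the MEF2 consensus in capitals.
*Pgam2* chr11:5803797-5803946, minus strand: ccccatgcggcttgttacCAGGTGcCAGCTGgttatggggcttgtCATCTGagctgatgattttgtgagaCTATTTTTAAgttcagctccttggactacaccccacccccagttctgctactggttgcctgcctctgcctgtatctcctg
*Pgam1* chr19:41911721-41911870, plus strand: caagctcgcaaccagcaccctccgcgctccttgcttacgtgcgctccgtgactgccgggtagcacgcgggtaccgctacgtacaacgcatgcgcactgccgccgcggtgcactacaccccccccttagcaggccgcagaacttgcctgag
*Eno3* chr11:70657026-70657175, plus strand: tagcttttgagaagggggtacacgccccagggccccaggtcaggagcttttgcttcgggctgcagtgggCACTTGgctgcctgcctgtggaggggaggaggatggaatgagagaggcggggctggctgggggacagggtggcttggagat
*Eno1* chr4:150236558-150236707, plus strand: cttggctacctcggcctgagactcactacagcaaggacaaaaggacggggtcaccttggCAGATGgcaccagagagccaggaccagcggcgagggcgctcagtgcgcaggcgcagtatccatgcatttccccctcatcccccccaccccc

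The *Pgam2* window held 3 CANNTG matches, at -132, -125 and -105 from the start, and a MEF2 match at -80. The match at -125 reads CAGCTG, itself an E-box. It was held by 8.39% of 32851 windows of this length, 1 for each start in the RefSeq table. The general form CANNTG, read alike on both strands, was in 47.7% of windows, so the single matches in *Eno3* (-81) and *Eno1* (-91) are common, and *Pgam1* had none. MEF2 matches on either strand were in 1.67% of all windows and, of 38 listed genes with a window, in *Pgam2* and *Ckb* alone. CAGCTG was in 6 of the 38 (*Gpi1*, *Pgam2*, *Pkm*, *Fbp2*, *Pygm* and *Ckmt2*). ACGTG, the core of hypoxia response elements, was in 12 of the 38 on either strand, or 31.6% beside 11.2% of all windows, among them *Slc2a1*, *Hk2*, *Pgk1*, *Pgam1* and *Ldha*. It can share bases with CANNTG, as in *Pfkm*. These matches describe the letters only, since binding was not measured.

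*Gapdh*, which makes the NADH of glycolysis (chr6:125161715-125166467), had 1888, 1548 and 1458 CPM in control and 1409, 1049 and 1402 CPM in *Piezo1* cKO libraries. The groups did not overlap, and *Piezo1* cKO 2 was the lowest (log2 fold change -0.34, SE 0.152, edgeR adjusted p = 0.342). *Pkm*, pyruvate kinase of muscle and proliferating cells and the most abundant gene of the set, had 3308, 2787 and 2767 CPM in control and 2990.0, 1878 and 2552 CPM in cKO libraries. Here *Piezo1* cKO 1 lay within the control range (-0.26, SE 0.167, edgeR adjusted p = 0.573). *Pgk1*, which makes the first ATP of glycolysis, had 175 to 257 CPM in control and 186 to 209 CPM in cKO libraries (-0.16, SE 0.143, edgeR adjusted p = 0.720).

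Lactate dehydrogenase A, encoded by *Ldha* (chr7:46841475-46855627), turns pyruvate into lactate, and its transcript had 1683, 1434 and 1552 CPM in control and 1388, 1062 and 1309 CPM in *Piezo1* cKO libraries. All cKO libraries were lower (log2 fold change -0.31, SE 0.150, edgeR adjusted p = 0.393). *Ldhb*, the form of oxidative tissues, had 119, 64.7 and 129 CPM in control and 131, 143 and 98.1 CPM in cKO libraries, with overlap (0.26, SE 0.198, edgeR adjusted p = 0.659). *Pdk4*, a kinase that inhibits pyruvate dehydrogenase (chr6:5483351-5496309), had 116, 112 and 120.4 CPM in control and 125, 157 and 147 CPM in cKO libraries. The groups did not overlap, and the gap was widest for *Piezo1* cKO 2 (0.30, SE 0.156, edgeR adjusted p = 0.434). *Pdha1*, a subunit of pyruvate dehydrogenase, and *Slc16a1*, a lactate transporter, had estimates of 0.26 and -0.11 with overlapping groups. *Slc16a3*, the lactate exporter of glycolytic cells, and *Pdk1* had at most 9 and 6 counts in a library.

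Of the 7 glycogen genes, 5 could be tested. *Gbe1*, the branching enzyme (chr16:70313949-70569716), had 51.8, 79.2 and 69.7 CPM in control and 50.7, 40.9 and 55.7 CPM in *Piezo1* cKO libraries. Control 1 lay among the cKO libraries, so the groups overlapped (log2 fold change -0.46, SE 0.214, edgeR adjusted p = 0.375). *Pygm*, the muscle form of glycogen phosphorylase (chr19:6384399-6398459), had 15.8, 11.2 and 23.6 CPM in control and 20.3, 30.4 and 17.2 CPM in cKO libraries, from 10 to 23 counts each. The groups overlapped (0.42, SE 0.341, edgeR adjusted p = 0.675). Its brain form *Pygb* was counted 2, 11 and 9 times in control and 5, 20 and 16 times in cKO libraries, and the liver form *Pygl* at most 3. *Gys1*, glycogen synthase, and the phosphoglucomutases *Pgm1* and *Pgm2*, which link glycogen to glycolysis, had estimates of 0.03, 0.15 and -0.05.

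*Ckb*, the brain-type cytosolic creatine kinase that myoblasts make (chr12:111669361-111672338), was the creatine kinase with counts enough for a test. It had 368, 301 and 412 CPM in control and 305, 304 and 265 CPM in *Piezo1* cKO libraries. Control 2 was below 2 of the cKO libraries, so the groups overlapped (log2 fold change -0.30, SE 0.136, edgeR adjusted p = 0.342). The mitochondrial *Ckmt1* had 3 counts over all libraries.

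The next comparison set muscle isoforms against general ones. Of the muscle isoforms *Eno3*, *Pfkm*, *Pgam2*, *Pygm* and *Ckm*, 4 could be tested, and all 4 estimates were above 0 (median 0.44). None was called by edgeR, where *Pgam2* alone had an unadjusted p under 0.05, and DESeq2 set an adjusted p for *Eno3* only. Of 7 general counterparts 5 could be tested, with 1 estimate above 0 (*Pfkp*) and 4 below (*Eno1*, *Pfkl*, *Pgam1* and *Ckb*, median over the 5 of -0.18). The 2 under the filter, *Pygb* and *Pygl*, went the other way. *Pygb* had 22 counts in control and 41 in cKO libraries together, and *Pygl* 1 and 5. Their DESeq2 estimates were 1.02 (SE 0.667) and 2.26 (SE 2.086), so the contrast with the muscle forms depends on the filter. With the neuronal *Eno2* counted as general too, as in the enolase share, 2 tested estimates were above and 4 below 0 (median -0.12). The forms also differ in level, and estimates over all genes tested fell with level, as given below. *Pfkm*, *Pygm* and *Pgam2* had mean levels of 18.1, 19.7 and 36.1 CPM, *Ckb* and *Eno1* 326 and 1791 CPM. Against this order, *Eno3* had 1229 CPM, and *Pfkl* and *Pgam1* 26.8 and 29.6 CPM. The part of level in this contrast was not tested. To set the forms against each other within a library, free of library scaling, the muscle form was expressed as a share of the counts of its enzyme family. With 3 libraries in each group, an exact two-sided permutation test cannot give p under 0.1.

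*Pgam2* made up 38.2, 12.9 and 56.3% of phosphoglycerate mutase counts in the control and 58.5, 71.8 and 65.5% in the *Piezo1* cKO libraries. These shares rest on 31 to 78 counts a library, and the 95% Wilson interval of control 3 (39.3 to 71.8%) reached across the cKO values. The means were 35.8% ± 21.8 and 65.2% ± 6.65 (SD, n = 3 each), a difference of 29.5 percentage points. Every cKO share was above every control share (exact permutation p = 0.1, 0.4 after adjustment over 4 families). Without control 2 the difference was 18.0 points, over 1.5 times smaller. *Eno3* made up 36.6, 35.6 and 41.3% of enolase counts (*Eno1*, *Eno2* and *Eno3*) in control and 41.2, 46.1 and 44.2% in cKO libraries, from 1738 to 2739 counts. Control 3 just exceeded *Piezo1* cKO 1, and the means of 37.8% ± 3.03 and 43.9% ± 2.50 differed by 6.00 points (SD, n = 3 each; exact permutation p = 0.2, adjusted 0.4). When *Eno1b*, a near copy of *Eno1*, was counted with the general enolases, a choice made after the data were seen, the mean shares were 30.1 and 35.9%, with no overlap (exact permutation p = 0.1).

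The other families did not separate. *Pfkm* had mean shares of 14.1% ± 1.79 and 15.4% ± 5.03 of phosphofructokinase counts (SD, n = 3 each; exact permutation p = 0.8). *Pygm* had mean shares of 66.3% ± 18.5 and 54.2% ± 11.2 of glycogen phosphorylase counts (SD, n = 3 each; exact permutation p = 0.5), from 13 to 45 counts a library. Its difference of -12.1 points was -2.94 points without control 1, and the *Pfkm* difference of 1.30 points turned to -0.721 without *Piezo1* cKO 1. No family had an adjusted p under 0.4. Intervals and floors cover counting error only.

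**Figure D2:**
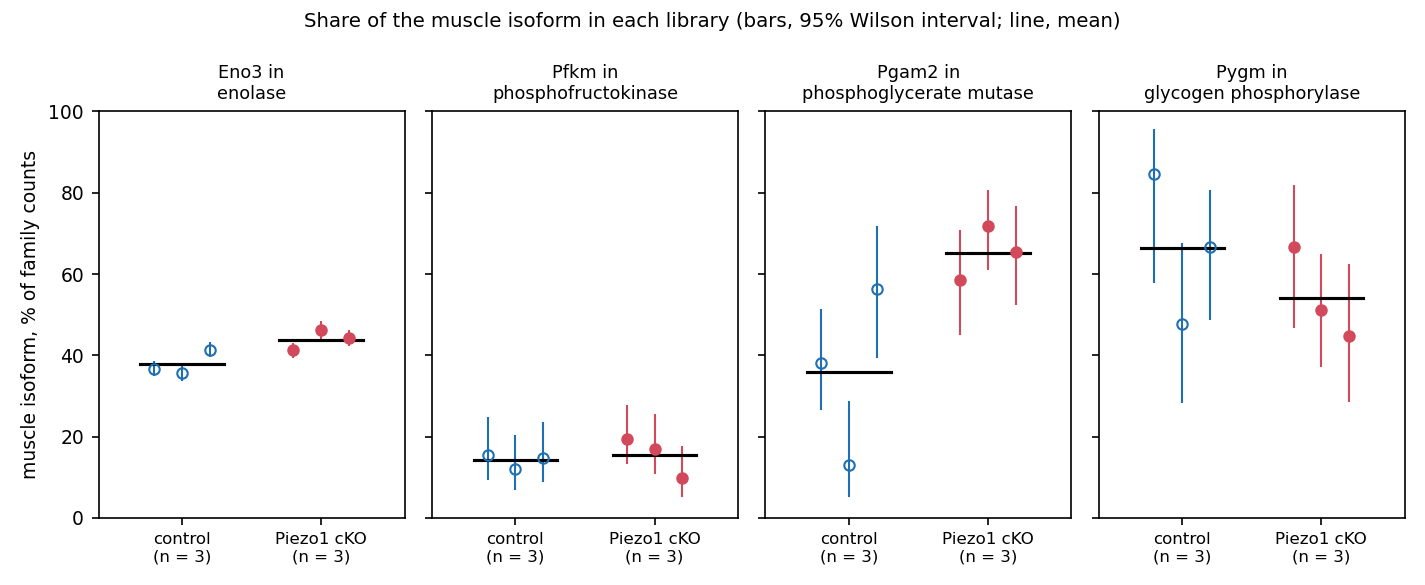
Share of the muscle isoform in the counts of its enzyme family (percent) in each library, for enolase, phosphofructokinase, phosphoglycerate mutase and glycogen phosphorylase; open circles are control and filled circles *Piezo1* cKO libraries, vertical bars 95% Wilson intervals and horizontal lines group means. The groups separate only for *Pgam2*, with means of 35.8 and 65.2%.

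The lower estimates of the abundant enzymes were next set beside those of other abundant genes. Of 78 tested genes with a mean level above 1000 CPM, 75 had a log2 fold change below 0, with a median of -0.27. The set had 6 genes there: *Pkm*, *Eno1*, *Aldoa*, *Ldha* and *Gapdh*, with estimates from -0.34 to -0.25, and *Eno3*, one of the 3 genes of the 78 that were not below 0. The median over all genes tested fell with level, from 0.08 under 30 CPM and 0.04 from 30 to 100 CPM to -0.04 from 100 to 300 CPM and -0.15 from 300 to 1000 CPM. After cyclic loess normalisation the median of the 78 genes was -0.03, with 43 below 0. The estimates of *Pkm* and *Aldoa* were then 0.06 and 0.0023, those of *Eno1*, *Gapdh* and *Ldha* were -0.06, -0.08 and -0.06, and that of *Eno3* was 0.26. The lower direction of *Pkm* and *Aldoa* therefore depends on the scaling. Without *Piezo1* cKO 2, in which all 5 enzymes had their lowest level, the median of the 78 genes was -0.15.

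**Figure D3:**
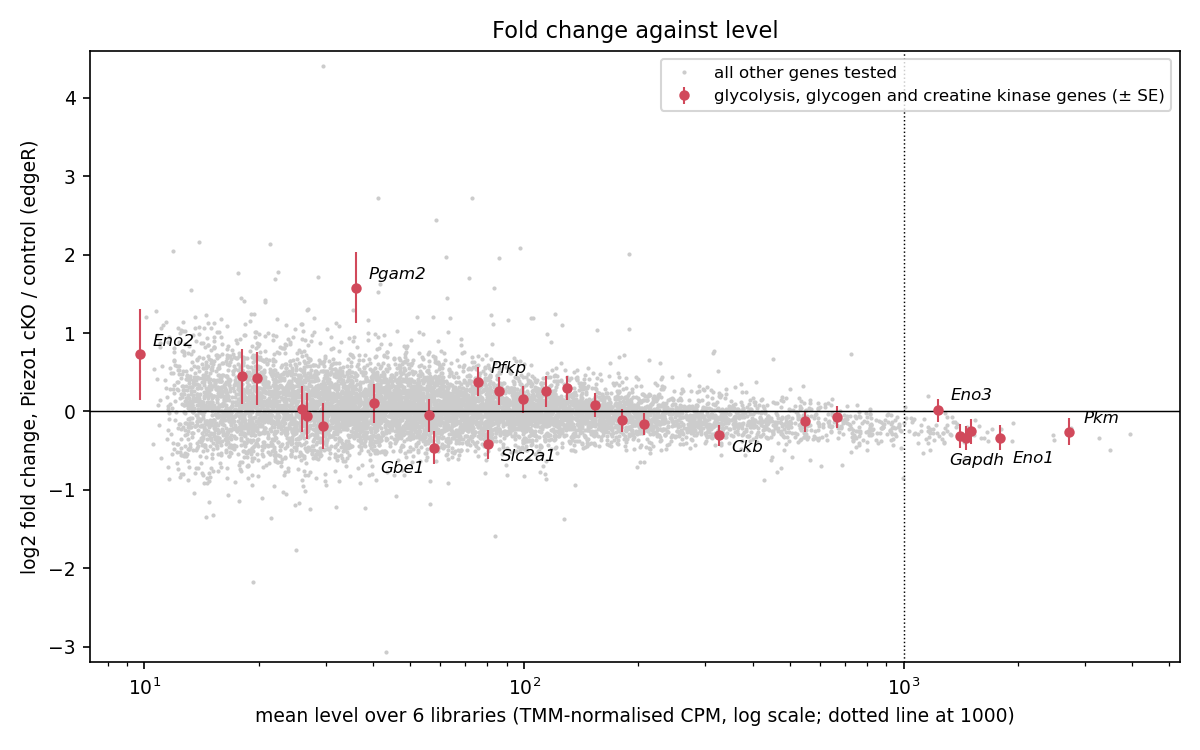
Log2 fold change (*Piezo1* cKO over control, edgeR) against mean level in TMM-normalised CPM on a log axis, for all 8551 genes tested (grey) and the 28 genes of the set (red, with SE). Right of the dotted line at 1000 CPM, 75 of 78 genes lie below 0, and *Eno3* lies level with 0 among them.

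The libraries also differed in how many transcripts of differentiating muscle they held. In bulk RNA, more cells of a type and more RNA in each cell cannot be told apart. Of 17 markers of differentiating muscle cells, 16 had a row and 10 could be tested, and all 10 had estimates above 0 (median 1.99). None was called by edgeR, with 6 at an unadjusted p under 0.05, and DESeq2 called 1. Their summed level was 611, 205 and 469.9 CPM in the control and 797, 2286 and 1146 CPM in the *Piezo1* cKO libraries, and the most abundant was *Acta1*, skeletal muscle actin. *Myog*, the factor that starts terminal differentiation, had 57.5, 3.35 and 53.1 CPM in control and 79.9, 268 and 122 CPM in cKO libraries. The 7 markers of proliferating cells all had estimates below 0 (median -0.37). None was called by edgeR or by DESeq2, and 4 had an unadjusted edgeR p under 0.05, beside 11.9% of all genes tested. Their summed levels were 1536, 1810.3 and 1599.9 CPM in control and 1564, 1169 and 1267 CPM in cKO libraries. *Ccnb1*, a mitotic cyclin, was the most abundant. Mean levels of the 7 markers ran from 63.4 to 396 CPM, where lower estimates grow more common with level. Among all genes tested, 1621 of 3684 from 30 to 100 CPM had estimates below 0. This held for 1115 of 1923 from 100 to 300 CPM and for 502 of 618 from 300 to 1000 CPM.

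*Pgam2* moved with the differentiation markers from library to library. Relative to the mean of the 6 libraries, its log2 level was 0.13, -2.47 and -0.36 in control and 0.51, 1.41 and 0.78 in *Piezo1* cKO libraries. The mean of the 10 markers was -0.16, -2.12 and -0.54 in control and 0.27, 1.77 and 0.78 in cKO libraries, the same order in all 6 libraries. *Eno3* stayed between -0.25 and 0.16 and was low in both control 2 and *Piezo1* cKO 2, the libraries at opposite ends of the marker range. The mean of *Pkm*, *Eno1*, *Aldoa*, *Ldha* and *Gapdh* was 0.33, 0.05 and 0.09 in control and 0.06, -0.47 and -0.06 in cKO libraries, lowest in *Piezo1* cKO 2, where proliferation markers were also lowest (-0.34). The part of these marker differences in the enzyme levels was not tested.

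**Figure D4:**
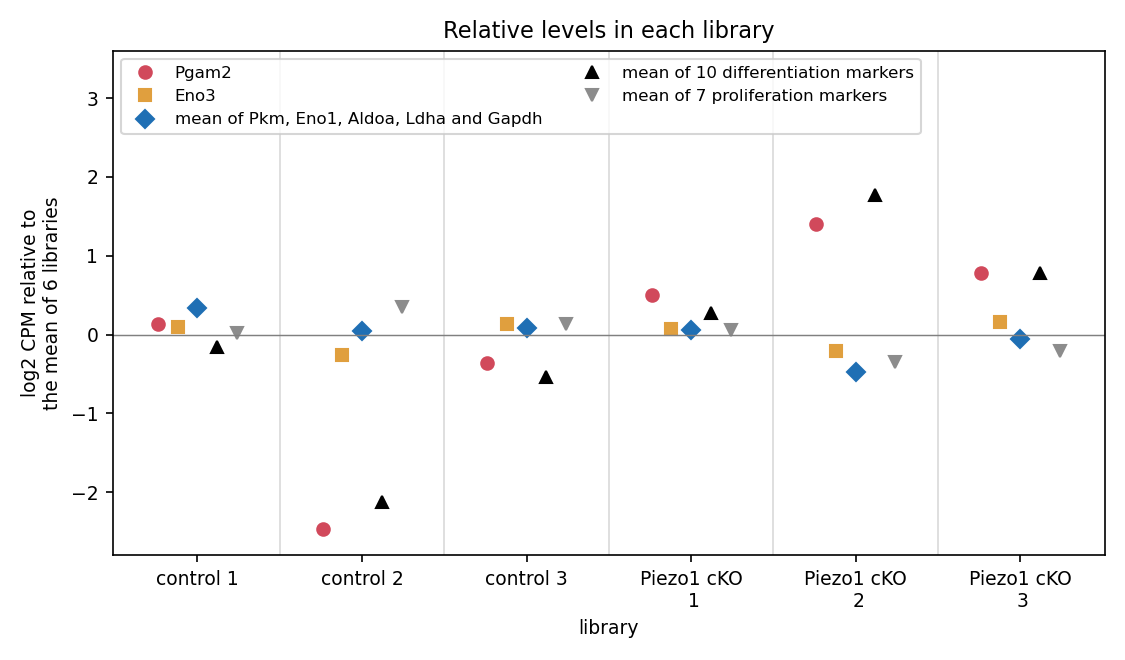
Log2 level relative to the mean of the 6 libraries, by library, for *Pgam2* (circles), *Eno3* (squares), the mean of *Pkm*, *Eno1*, *Aldoa*, *Ldha* and *Gapdh* (diamonds), the mean of 10 differentiation markers (upward triangles) and the mean of 7 proliferation markers (downward triangles). *Pgam2* and the differentiation markers run together from about -2 in control 2 to above 1 in *Piezo1* cKO 2, while *Eno3* stays within 0.3 of the mean.

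The rest of the pathway was read from 8 lists of 93 genes, of which 86 had a row and 54 could be tested. In these lists 1 gene of the 54 was called by edgeR, beside 0.784% of all genes tested. *Gatm* (chr2:122594467-122611303), which makes the precursor of creatine, rose in *Piezo1* cKO libraries. Its level was 50.3, 60.2 and 60.2 CPM in control and 81.1, 115 and 86.1 CPM in cKO libraries. All cKO libraries were higher, *Piezo1* cKO 2 most (log2 fold change 0.71, SE 0.192, edgeR adjusted p = 0.0468). The call was not made by DESeq2 (adjusted p = 0.300), by limma-voom with or without cyclic loess (0.150 and 0.0796) or under a replicate block (0.110), at log2 fold changes from 0.67 to 0.72. It was also lost in edgeR without control 1 (0.124), control 3 (0.0582), *Piezo1* cKO 2 (0.505) or *Piezo1* cKO 3 (0.102), with log2 fold changes of 0.64, 0.75, 0.54 and 0.77. *Slc6a8*, the creatine transporter, had an estimate of 0.47 with overlapping groups (edgeR adjusted p = 0.573). *Gamt*, which completes creatine synthesis and is named here after its values were seen, was under the filter at 3 to 6 counts in each control library and 7, 41 and 13 counts in *Piezo1* cKO 1 to 3. It was called with no filter, without control 2 and without *Piezo1* cKO 1.

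Among the 52 tested genes of the other lists none was called by edgeR, or by DESeq2 among the 28 to which it gave an adjusted p. An unadjusted edgeR p under 0.05 was found for 6 of the 52 (11.5%), near the 11.9% of all genes tested. Of 9 tested glycogen genes outside the set, 8 had estimates above 0 (median 0.28), among them *Ugp2*, which makes UDP-glucose (0.43, edgeR adjusted p = 0.373), and the lysosomal glucosidase *Gaa* (0.29, 0.509). Of 6 tested pentose phosphate genes, 5 had estimates below 0 (median -0.17), and transketolase, *Tkt*, had -0.53 (edgeR adjusted p = 0.464). Of 9 shuttle genes that carry NADH into mitochondria, 4 were above and 5 below 0. The mitochondrial glycerol phosphate dehydrogenase *Gpd2* had 175, 182 and 172 CPM in control and 144, 107 and 140.5 CPM in *Piezo1* cKO libraries, with no overlap (-0.43, SE 0.151, edgeR adjusted p = 0.168). Of 7 AMPK subunits and adenylate enzymes, *Ak1*, the muscle adenylate kinase, had 263, 162 and 261 CPM in control and 298, 332 and 317 CPM in cKO libraries. Its groups did not overlap either (0.47, SE 0.144, edgeR adjusted p = 0.110), and it was called with total counts, with at least 10 counts in every library, without control 3 and without *Piezo1* cKO 1. The 9 tested targets of hypoxia-inducible factor outside glycolysis were split, 4 above and 5 below 0, from *Adm* at -0.80 to *Egln3* at 0.58 (edgeR adjusted p = 0.469 and 0.187). The 7 tested genes of pyruvate entry and pyruvate dehydrogenase lay between -0.13 and 0.20. Of 5 other glycolytic enzymes, *Eno1b* (-0.38) and *Adpgk* (-0.40) were below 0, with edgeR adjusted p of 0.234 and 0.456, and *Eno1b* was called without *Piezo1* cKO 1.

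**Figure D5:**
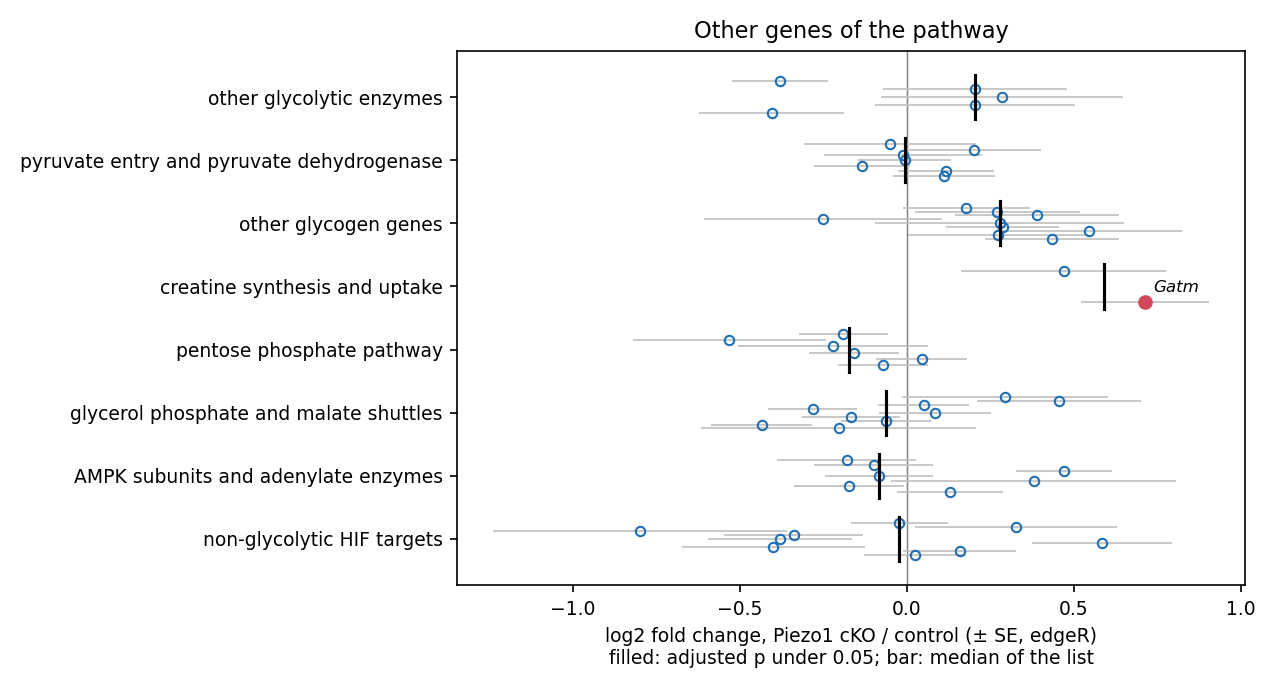
Log2 fold change (*Piezo1* cKO over control, edgeR, with SE) of the 54 tested genes of the 8 pathway lists outside the set; the black bar is the median of each list and the filled point is the called gene. *Gatm*, at 0.71, is the single called gene, and list medians run from -0.17 to 0.59.

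*Gapdh*, *Eno1*, *Ldha* and other glycolytic genes have near-identical copies in the genome, and *Gapdh*, *Tpi1*, *Gys1*, *Aldoa*, *Pfkp*, *Pfkm*, *Pdha1*, *Ckmt1* and *Pgm1* overlap another gene in the annotation. The handling of multi-mapped reads and of strand is not given in the sources used here, and the levels of these genes carry that uncertainty.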

How the data were processed

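Per the labels and the study's methods, the authors made cDNA from 500 pg of total RNA per library with barcoded oligo-dT primers, applied 12 PCR cycles, mapped reads to GRCm38 (STAR 2.7.9a), assigned them with featureCounts 2.0.1 and counted UMIs with UMI-tools 1.1.1. The deposited values are these counts, 1 column per library, not normalised.

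Counts were tested in R 4.3.3 with edgeR 4.0.16 (TMM, robust quasi-likelihood, filterByExpr with a minimum count of 10, Benjamini-Hochberg adjustment over 8551 genes, threshold 0.05), whereas the study used DESeq2. Results for the set were read from this whole-table fit. The SE given with edgeR estimates was derived from the F statistic of its test, as the absolute log2 fold change over the square root of F. DESeq2's own SE was larger for *Slc2a1* (0.251 beside 0.184) and smaller for *Gapdh* (0.138 beside 0.152). CPM used TMM-scaled library sizes, and library profiles used log2 CPM with 0.5 added to counts. Alternatives were DESeq2 1.42.0, DESeq2 size factors, total counts, limma 3.58.1 (voom, with and without cyclic loess), other filters, a replicate block, a threshold of 0.1 and each library left out. Shares were compared by exact permutation with 95% Wilson intervals. The calculations were tested on simulated data with a common dispersion for all genes and large changes planted only in genes with higher counts. This checked the code and did not cover small changes or genes with few counts. Gene positions are from GENCODE vM21, matched by symbol, and promoters from RefSeq.

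The members and lists were chosen with earlier results of these data known. Full values are given for muscle isoforms and their counterparts, for members called or with an unadjusted edgeR p under 0.05, and for those whose groups did not overlap. From each list the called genes are named, or else up to 3 with the smallest p. The result of 1 listed gene is not reported here. *Aldoa*, *Pkm*, *Eno2* and *Ldhb* are given in full beyond this rule. No amino acid sequences are shown.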

Additional observations from a re-analysis of the deposited data

How the results depend on the processing

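Over 14 or fewer alternatives each, 228 of 249 recomputed fold changes of 18 named genes kept their direction and, where an adjusted p was set, their side of the threshold. Only *Gatm* of the 18 was called in the main fit, so for the others staying uncalled says little. *Ak1*, *Gamt* and *Eno1b*, whose calls changed with the setting, are not among the 18. DESeq2 set no adjusted p for *Pfkl*, *Pfkm*, *Pgam1*, *Pgam2*, *Eno2*, *Gbe1* and *Pygm*, so only their direction was compared there. Genes called (67, 40 higher and 27 lower) numbered 27 with DESeq2 (12 higher and 15 lower by the labels), 23 with cyclic loess, 129 with no filter, 124 at an adjusted p under 0.1 and 46 with the replicate block. Leaving out 1 library gave 6 (without *Piezo1* cKO 2) to 174 (without *Piezo1* cKO 1), with 105 without control 1, 131 without control 3 and 29 without *Piezo1* cKO 3. Members called (0) were 1, *Pgam2*, with no filter, and 0 to 1 with 1 library left out. Pathway genes called (1) were 0 with DESeq2, limma-voom, cyclic loess or the block, 2 with total counts, no filter or at least 10 counts in every library, and 0 to 4 (without *Piezo1* cKO 1) with 1 library left out. The members' median, -0.06, was 0.0373 with cyclic loess, 0.02 with total counts, 0.01 with DESeq2 and -0.07 with the block. With 1 library left out it ran from -0.1286 (without *Piezo1* cKO 1) to 0.0326 (without control 1), with -0.0942 without control 2 and 0.0182 without *Piezo1* cKO 2. Total counts shifted the median of all genes to 0.08 and the share of calls that were higher from 59.7 to 73.1%. Signs turned for *Pfkl* with total counts (0.0144), *Aldoa* (0.0023) and *Pkm* (0.0555) with cyclic loess and, with 1 library left out, for *Pfkl* (-0.1875 to 0.1168), *Pgam1* (-0.4989 to 0.2247), *Eno3* (-0.0942 to 0.1137) and the *Pfkm* share (-0.721 to 4.12 points, reversed without *Piezo1* cKO 1). The *Pygm* share difference ran from -21.4 (without control 2) to -2.94 points (without control 1). The cause of these shifts was not tested. Deviations from the group means had correlations of -0.143, -0.203 and 0.0121 between same-numbered libraries. With 3 libraries in each group this cannot exclude that libraries were paired. The replicate block called none of the members. At least 10 counts in every library left no value for *Pgam2*, *Pfkm* and *Eno2*. Depth limits *Eno2*, *Pfkm*, *Pygm* and *Pgam2*, with 1 to 12, 9 to 22, 10 to 23 and 4 to 56 counts a library.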
